A study of Mus musculus with 9 samples.

Results

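The genes described here carry the rhythm of the circadian clock to other genes or modify the clock itself. They are Dbp, Tef, Hlf, Nfil3, Bhlhe40, Bhlhe41, Ciart, Rora, Csnk1d and Csnk1e, taken by gene symbol from 2 deposited transcript tables, and they make up 10 of the 47593 gene symbols and 56 of the 115220 transcripts listed. The value of a gene is the sum over its transcripts of FPKM, fragments per kilobase of transcript scaled to the mapped fragments of the library, a level per transcript length. All 10 genes had a mean of at least 0.5 FPKM, the minimum for entering a test.

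Ribosome-associated RNA of adult C57BL/6 mouse medial prefrontal cortex (mPFC), labelled as neuronal, was sequenced in 9 libraries after RiboTag immunoprecipitation, which pulls down tagged ribosomes with the RNA they hold. The 3 sleep libraries (S) and the 3 enforced wake libraries (EW) came from mPFC with GFP overexpressed, and the 3 enforced wake with Fxr1 libraries (EWFxr1) from mPFC with GFP-Fxr1 overexpressed. Every group therefore carries a GFP construct, and no sleep group with Fxr1 was analysed here. The length of the wake, the time of day, the cells that carry the ribosome tag and whether the 3 libraries of a group came from separate animals are not given in the sources used here, so p-values measure the spread between these libraries, which may be technical.

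The molecular clock is a loop in which Clock and Arntl activate the Per and Cry genes through E-box sequences, and the Per and Cry proteins repress them in turn. Its output passes through another site, the D-box. Dbp, Tef and Hlf, the PAR bZIP family (proline and acidic amino acid rich basic leucine zipper factors), activate there, and Nfil3 represses. Bhlhe40 and Bhlhe41 repress at E-boxes, Ciart binds Arntl and represses, Rora activates Arntl through ROR elements, and the casein kinases Csnk1d and Csnk1e phosphorylate the Per proteins.

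The promoter windows of 4 members are shown because they hold different numbers of clock sites. In enforced wake with Fxr1 minus sleep Dbp and Ciart had the largest falls and Nfil3 the largest rise among the members, and Tef is a relative of Dbp that was not called in the 3 comparisons below. Each window runs 5′ to 3′ on the gene's strand, from 250 bases before to 50 bases after a RefSeq start site on GRCm38.p6, 300 bases in all, with motif matches in capitals. The windows are Dbp (chr7:45704997-45705296, plus strand), Ciart (chr3:95882179-95882478, minus strand), Nfil3 (chr13:52980990-52981289, minus strand) and the downstream promoter of Tef (chr15:81811164-81811463, plus strand).
Dbp: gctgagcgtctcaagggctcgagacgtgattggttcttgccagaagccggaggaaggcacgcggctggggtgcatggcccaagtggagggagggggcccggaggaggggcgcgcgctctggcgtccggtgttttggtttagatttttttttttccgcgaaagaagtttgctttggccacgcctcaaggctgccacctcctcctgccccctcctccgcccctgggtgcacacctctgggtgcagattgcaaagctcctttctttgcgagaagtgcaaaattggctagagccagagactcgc
Ciart: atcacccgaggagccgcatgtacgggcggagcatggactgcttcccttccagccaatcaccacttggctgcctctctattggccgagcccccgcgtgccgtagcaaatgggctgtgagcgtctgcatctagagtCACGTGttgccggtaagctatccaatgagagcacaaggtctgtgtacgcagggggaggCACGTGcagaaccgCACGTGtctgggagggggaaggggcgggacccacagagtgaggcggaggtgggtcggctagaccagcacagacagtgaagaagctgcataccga
Nfil3: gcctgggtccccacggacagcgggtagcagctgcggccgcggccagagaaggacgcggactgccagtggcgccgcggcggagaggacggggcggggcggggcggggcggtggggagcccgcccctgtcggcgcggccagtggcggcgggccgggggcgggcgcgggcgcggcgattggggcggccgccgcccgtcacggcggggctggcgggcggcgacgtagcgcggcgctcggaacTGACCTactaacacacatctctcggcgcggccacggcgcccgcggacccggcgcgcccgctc
Tef: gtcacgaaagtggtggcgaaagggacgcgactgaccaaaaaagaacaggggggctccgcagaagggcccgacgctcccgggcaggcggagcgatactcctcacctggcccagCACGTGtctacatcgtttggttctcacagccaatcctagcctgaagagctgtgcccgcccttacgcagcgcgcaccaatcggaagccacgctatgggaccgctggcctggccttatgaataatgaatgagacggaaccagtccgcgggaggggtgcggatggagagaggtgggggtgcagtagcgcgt
The motifs searched on both strands were the E-box CACGTG, the D-box TTANGTAA, the cAMP response element TGACGTCA and the ROR half-site AGGTCA, and no match overlapped another. The Ciart window held 3 E-boxes, which begin at positions -116, -58 and -44 from the start site, and the Tef window held 1, at -138. The Dbp window held none of these motifs. In Nfil3 the capitals mark a ROR half-site read on the opposite strand, at -12. Among 32851 promoter windows of the same length 7.15% held the E-box, 2.32% the D-box, 1.79% the cAMP response element and 16.3% the ROR half-site. RefSeq windows were matched for 8 of the 10 members, 12 windows in all, of which 4 held an E-box, 1 (Hlf) a cAMP response element, 1 a ROR half-site and 0 a D-box. Bhlhe40 and Csnk1d are named only. A match is a string of letters and not a measured binding site.

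Libraries held an estimated 29900000 to 37300000 fragments. Fxr1 stood at 31.7, 34.8 and 31.0 FPKM in sleep, 34.8, 33.9 and 31.1 in enforced wake and 91.1, 67.7 and 71.8 with Fxr1, so it was highest in the libraries labelled with it. Arc, an activity-induced synaptic gene, was at 14.0, 9.04 and 9.58 FPKM in sleep, at 99.2, 97.5 and 107 FPKM in enforced wake and at 14.8, 49.5 and 56.8 FPKM with Fxr1. Replicate 1 of the Fxr1 group stood apart. For each of the 10 members it was either the highest (4) or the lowest (6) of its group, as it was for 86.1% of the 14617 genes with a mean of at least 0.5 FPKM, against 49.6% to 78.0% for the other 8 libraries. Changes also followed the GC content of the transcripts. From the lowest to the highest quintile of genes by GC, the median log2 change ran from -0.17 to 0.28 in enforced wake minus sleep, from 0.29 to -0.62 in enforced wake with Fxr1 minus enforced wake and from 0.11 to -0.34 in enforced wake with Fxr1 minus sleep. The members span 40.9% (Rora) to 61.6% GC (Dbp), so the change of each member is also given after the trend with GC content and transcript length was removed from every library.

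Defining markers of neurons were present in every library, the 5 excitatory markers summing to 446 to 635 FPKM and the 6 inhibitory markers to 309 to 391 FPKM. Markers of other cell types were present too, none of them at 0. The 7 astrocyte markers summed to 178 to 209 FPKM in the sleep group, to between 218 and 262 in enforced wake, and to between 146 and 156 FPKM in libraries with Fxr1, with no overlap between groups. The 5 microglia markers summed to 9.43 to 14.5, 13.3 to 16.4 and 8.38 to 12.4 FPKM in the same order, and the 6 oligodendrocyte markers to 65.9 to 102.0, 95.0 to 109.5 and 82.3 to 91.5 FPKM. The median log2 change of the 7 astrocyte markers was 0.27 in enforced wake minus sleep, -0.34 with Fxr1 minus enforced wake and -0.41 with Fxr1 minus sleep. With the GC and length trend removed these medians were 0.10, -0.57 and -0.35. In the tests below 1 of them rose, 1 fell, and 1 rose and 1 fell, beside 28.3%, 0.412% and 7.79% of all genes called. The part of these cell types in the results was not tested. In bulk libraries fewer cells that hold an RNA and less of it per cell cannot be told apart.

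**Figure D1:**
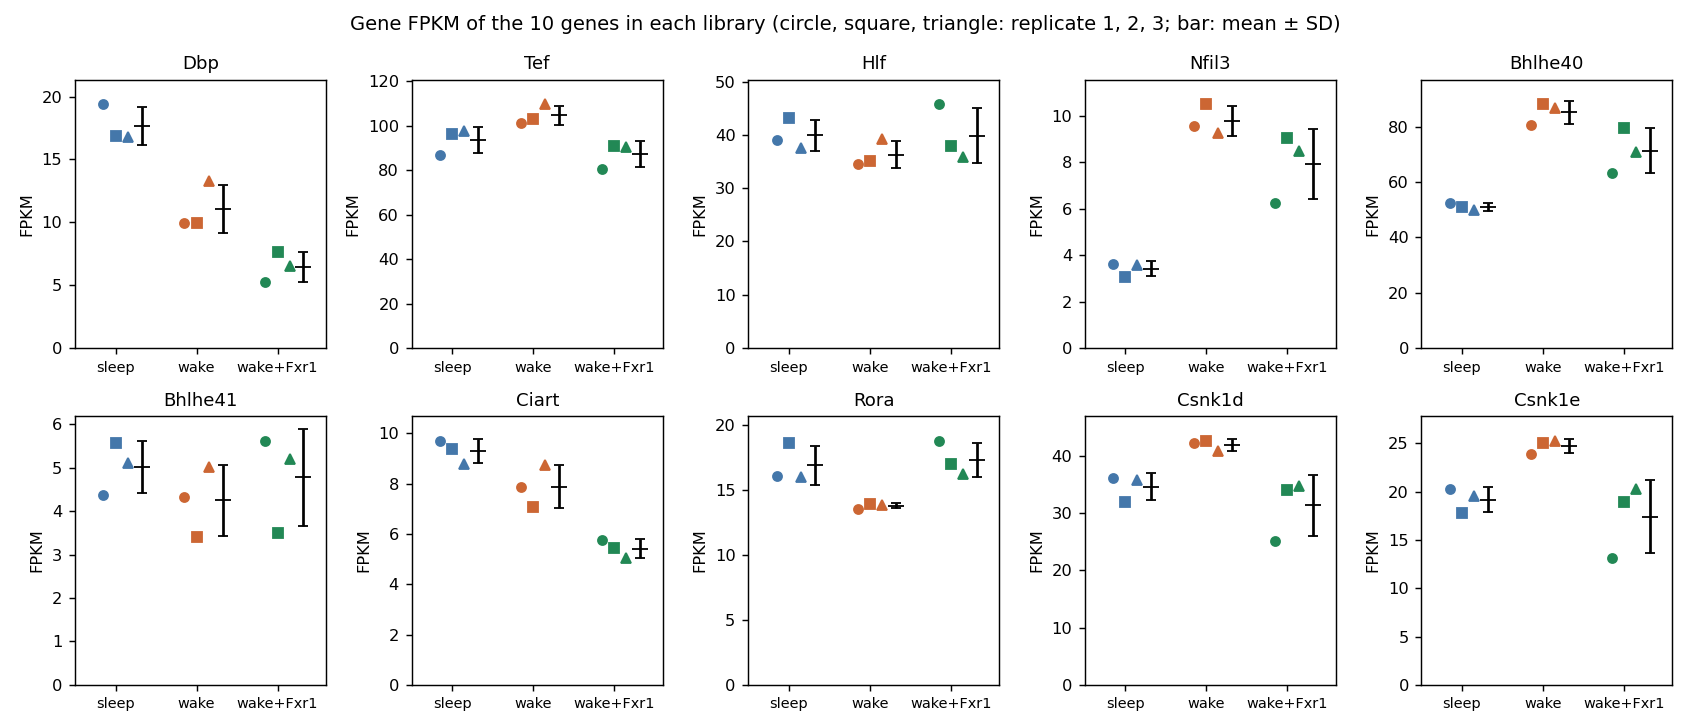
Gene FPKM (y axis, linear, from 0) of the 10 genes in each of the 9 libraries, by group on the x axis, with replicates 1, 2 and 3 as circle, square and triangle and the mean ± SD as a bar. Mean Dbp goes from 17.7 to 11.0 to 6.47 FPKM, Nfil3 and Bhlhe40 stand highest in enforced wake, and Hlf and Bhlhe41 overlap between all groups.

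Enforced wake was set against sleep, both with GFP, to ask what differs between these states. Nfil3 and Bhlhe40, repressors at D-boxes and E-boxes, rose 2.85-fold and 1.67-fold in mean FPKM, and Dbp, a D-box activator, fell to 0.625 of its sleep level. The casein kinases rose by less, Csnk1d 1.21-fold and Csnk1e 1.29-fold, and Rora fell to 0.816 of its sleep level. Tef, Hlf, Bhlhe41 and Ciart did not pass the test. In limma on log2(FPKM + 1), with Benjamini-Hochberg adjustment over all genes tested and a threshold of 0.05, 4 members rose and 2 fell. Of all 14673 genes tested 28.3% passed, 15.7% higher and 12.7% lower. The members were chosen with earlier results of these data known, so their count was not tested against that share. At an unadjusted p below 0.05 there were 8 members, beside 42.6% of all genes. With the GC and length trend removed, 2 members rose (Nfil3 and Bhlhe40) and 2 fell (Dbp and Rora), beside 10.4% and 13.2% of all genes (23.6% in either direction). The groups did not overlap for 5 higher and 3 lower members, nor for 25.8% and 23.8% of all genes (49.5% in either direction).

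Among the D-box activators, Dbp (chromosome 7, 45705088 to 45710203, plus strand, ENSMUSG00000059824, 1 transcript) had the largest change. Its level was 19.4, 16.8 and 16.8 FPKM in sleep and 9.92, 9.97 and 13.3 FPKM in enforced wake. Every enforced wake library was below every sleep library, with means of 17.7 ± 1.49 FPKM in sleep and 11.0 ± 1.91 FPKM in enforced wake (SD, n = 3 each). The log2 change was -0.64 (SE 0.12, limma adjusted p = 0.0130), and -1.03 (SE 0.10, adjusted p = 0.00239) with the trend removed. Dbp has the highest GC content of the members, and genes of its GC quintile had a median change of 0.28 in the same comparison, opposite in sign to that of Dbp. Its span shares 737 bases with Sphk2 on the opposite strand. Sphk2 was at 0.346 to 4.55 FPKM, and whether the authors' counting used strand was not given in the sources used here.

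Tef and Hlf, the other members of that family, differed from Dbp in level and in how they changed. Tef (chromosome 15, 81802421 to 81826863, plus strand, ENSMUSG00000022389) was the most abundant member, at 86.9, 96.1 and 97.6 FPKM in sleep and 101.4, 102.8 and 109.7 FPKM in enforced wake. The groups did not overlap, but the log2 change of 0.16 (SE 0.07) had an adjusted p of 0.109 in limma, and the value was 0.01 with the trend removed. Hlf (chromosome 11, 90336536 to 90390895, minus strand, ENSMUSG00000003949) was at 39.1, 43.2 and 37.5 FPKM in sleep and 34.6, 35.0 and 39.2 FPKM in enforced wake. These groups overlapped, and the log2 change was -0.14 (SE 0.08, limma adjusted p = 0.228), and -0.06 with the trend removed. The 3 activators together summed to 145 to 156 FPKM in sleep and 146 to 162 FPKM in enforced wake, so their total overlapped between the groups while the share of Dbp did not. Dbp made up 13.3%, 10.8% and 11.1% of that sum in sleep and 6.80%, 6.75% and 8.17% in enforced wake.

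Nfil3, the repressor that competes for the D-box (chromosome 13, 52967209 to 52981073, minus strand, ENSMUSG00000056749), had the largest rise of the members. It was at 3.62, 3.08 and 3.59 FPKM in sleep and 9.59, 10.5 and 9.25 FPKM in enforced wake. All enforced wake libraries lay above all sleep libraries, with 189 to 686 estimated fragments behind its values across the 9 libraries. The log2 change was 1.28 (SE 0.08, limma adjusted p = 0.00101), and 1.14 (adjusted p = 6.92e-04) with the trend removed. Relative to the summed FPKM of the 3 activators, Nfil3 was at 2.27% ± 0.271 in sleep and 6.46% ± 0.711 in enforced wake (SD, n = 3 each), so in level it remained far below them.

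Of the E-box repressors, Bhlhe40 (chromosome 6, 108660629 to 108666925, plus strand, ENSMUSG00000030103), a gene that many stimuli induce, was at 52.5, 50.9 and 49.8 FPKM in sleep and 80.5, 88.2 and 87.0 FPKM in enforced wake. All enforced wake libraries were above all sleep libraries, with means of 51.1 ± 1.39 FPKM in sleep and 85.2 ± 4.13 FPKM in enforced wake (SD, n = 3 each). Its log2 change was 0.73 (SE 0.06, limma adjusted p = 0.00135), and again 0.73 with the trend removed. Its paralog Bhlhe41, on the same chromosome (145858243 to 145865558, minus strand, ENSMUSG00000030256), was at 4.38, 5.57 and 5.10 FPKM in sleep and 4.33, 3.40 and 5.01 FPKM in enforced wake. These groups overlapped, with a log2 change of -0.20 (SE 0.13, limma adjusted p = 0.286), and again -0.20 with the trend removed. Bhlhe41 made up 8.95% ± 1.12 of the summed level of the pair in sleep and 4.75% ± 0.922 in enforced wake (SD, n = 3 each). Ciart (chromosome 3, 95878503 to 95882251, minus strand, ENSMUSG00000038550) was at 9.70, 9.39 and 8.79 FPKM in sleep and 7.85, 7.06 and 8.74 FPKM in enforced wake. The groups came close without overlapping, and the log2 change of -0.22 (SE 0.09) had an adjusted p of 0.104 in limma, and was -0.26 (adjusted p = 0.0663) with the trend removed.

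Rora, the nuclear receptor that activates Arntl (chromosome 9, 68653786 to 69388246, plus strand, ENSMUSG00000032238), was at 16.0, 18.6 and 16.0 FPKM in sleep and 13.5, 13.9 and 13.8 FPKM in enforced wake. All 3 enforced wake libraries were lower, with a log2 change of -0.27 (SE 0.07, limma adjusted p = 0.0351), and -0.17 (adjusted p = 0.0489) with the trend removed. The kinases changed in the other direction. Csnk1d (chromosome 11, 120961749 to 120991330, minus strand, ENSMUSG00000025162) was at 36.3, 32.0 and 35.8 FPKM in sleep and 42.3, 42.7 and 40.8 FPKM in enforced wake. Csnk1e (chromosome 15, 79417856 to 79455566, minus strand, ENSMUSG00000022433) was at 20.3, 17.8 and 19.5 FPKM in sleep and 23.9, 25.0 and 25.3 FPKM in enforced wake. Both were higher in every enforced wake library, by 0.27 (SE 0.06, limma adjusted p = 0.0258) and 0.35 (SE 0.07, adjusted p = 0.0129) on the log2 scale. Their GC contents are 54.1% and 56.4%, and with the trend removed both changes were 0.09 (adjusted p = 0.215 and 0.194), so neither call held. Without enforced wake replicate 2 none of Rora, Csnk1d and Csnk1e passed in limma, with adjusted p-values of 0.0927, 0.0873 and 0.0518, which left 3 members called. Rora and Csnk1d also lost their calls without sleep replicate 3 (0.0559 and 0.0518), without enforced wake replicate 1 (0.0926 and 0.0713) and without enforced wake replicate 3 (0.0911 and 0.0622), while Dbp, Nfil3 and Bhlhe40 passed whichever library was left out. The genes called in all fell to 2570, 1822 and 1866 without enforced wake replicate 1, 2 and 3. In the fit on all 9 libraries Rora, Csnk1d and Csnk1e also lost their calls (limma adjusted p = 0.0823, 0.183 and 0.153). Rora and Csnk1d lost theirs with replicate number in the fit (0.0554 each), and Rora without a filter on low values (0.0593). With replicate number and the trend removed Rora had 0.0800.

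**Figure D2:**
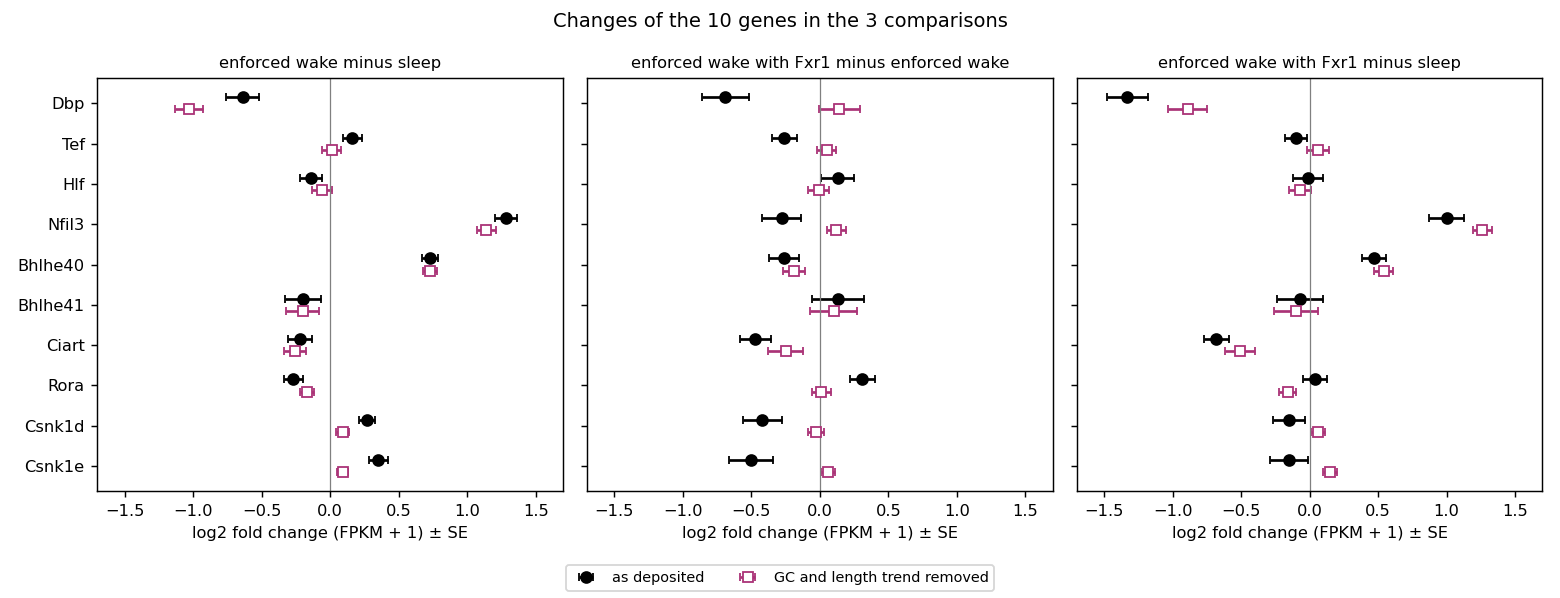
Log2 fold change of FPKM + 1 ± SE (x axis) of the 10 genes (y axis) in the 3 comparisons, from the values as deposited (filled circles) and with the GC and length trend removed (open squares). Nfil3 and Bhlhe40 lie right of 0 and Dbp left of 0 in enforced wake minus sleep in both forms, while in the middle panel removing the trend moves Dbp from -0.69 to 0.14.

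Enforced wake with Fxr1 was then set against enforced wake with GFP, to ask what Fxr1 overexpression changes in that state. None of the 10 members passed in limma with Benjamini-Hochberg adjustment, beside 0.412% of the 14563 genes tested (60 genes), 0.0824% higher and 0.330% lower. In mean FPKM, 7 members were at 0.586 to 0.838 of their level with GFP and Rora at 1.26 times it. At an unadjusted p below 0.05 there were 7 members, 6 lower (Dbp, Tef, Bhlhe40, Ciart, Csnk1d and Csnk1e) and 1 higher (Rora), where 38.3% of all genes were below it, 25.4% lower and 12.9% higher. The groups did not overlap for 7 lower members and 1 higher, but neither did they for 32.3% and 20.3% of all genes tested (52.5% in either direction). With the GC and length trend removed 0 members passed either, and 0.310% of all genes did, 0.124% higher and 0.186% lower.

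The changes are given beside the median of all genes in the same GC quintile. Dbp, in the highest GC quintile, had 5.23, 7.63 and 6.56 FPKM with Fxr1, all below the lowest enforced wake library. Its log2 change was -0.69 (SE 0.17, limma adjusted p = 0.0878), where the median gene of its quintile had -0.62, and with the trend removed the value was 0.14 (adjusted p = 0.596). Csnk1e, in the same quintile, was at 13.1, 18.9 and 20.3 FPKM, with a log2 change of -0.50 (SE 0.16, limma adjusted p = 0.0949) and 0.06 with the trend removed. Rora, in the lowest GC quintile, was at 18.8, 17.0 and 16.2 FPKM, with a change of 0.31 (SE 0.09, limma adjusted p = 0.0881) beside a median of 0.29 in its quintile, and 0.01 with the trend removed. Hlf (45.8, 37.8 and 35.9 FPKM) and Bhlhe41 (5.62, 3.51 and 5.21 FPKM) overlapped with enforced wake, and both changes were 0.13, equal to the median of their quintile, and -0.01 and 0.10 with the trend removed.

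In the fourth GC quintile, whose median change was -0.29, lay Tef, Ciart, Nfil3 and Csnk1d. Tef was at 80.6, 91.0 and 90.5 FPKM with Fxr1, with a log2 change of -0.26 (SE 0.09, limma adjusted p = 0.0983). Nfil3 was at 6.23, 9.06 and 8.49 FPKM, each below the lowest enforced wake library but above every sleep library, with a change of -0.28 (SE 0.14, adjusted p = 0.185 in limma). Csnk1d was at 25.2, 34.1 and 34.8 FPKM, with a change of -0.42 (SE 0.14, limma adjusted p = 0.0946). With the trend removed these 3 values were 0.05, 0.12 and -0.03. Ciart was at 5.77, 5.43 and 5.03 FPKM, all below the lowest enforced wake library. Its change was -0.47 (SE 0.11, limma adjusted p = 0.0878), and -0.25 (adjusted p = 0.287) with the trend removed. Bhlhe40, in the middle quintile with a median of -0.04, was at 63.5, 79.7 and 71.1 FPKM, between the sleep and the enforced wake libraries. Its change was -0.26 (SE 0.11, limma adjusted p = 0.130), and -0.19 with the trend removed.

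These counts depended on replicate 1 of the Fxr1 group. Without it 5 members passed in limma, with adjusted p-values of 0.0426 for Dbp, 0.0228 for Ciart, 0.0323 for Rora, 0.0201 for Csnk1d and 0.0210 for Csnk1e, and 3316 genes in all passed. Without enforced wake replicate 1, 2 or 3 the genes called were 4, 2 and 2, and without Fxr1 replicate 2 they were 4, with 0 members each time. The 4 members that it placed highest in its group have 40.9% to 52.2% GC and the 6 that it placed lowest 49.4% to 61.6%. When all 9 libraries were fitted together 6 members passed, 1 higher and 5 lower, and 3366 genes in all.

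**Figure D3:**
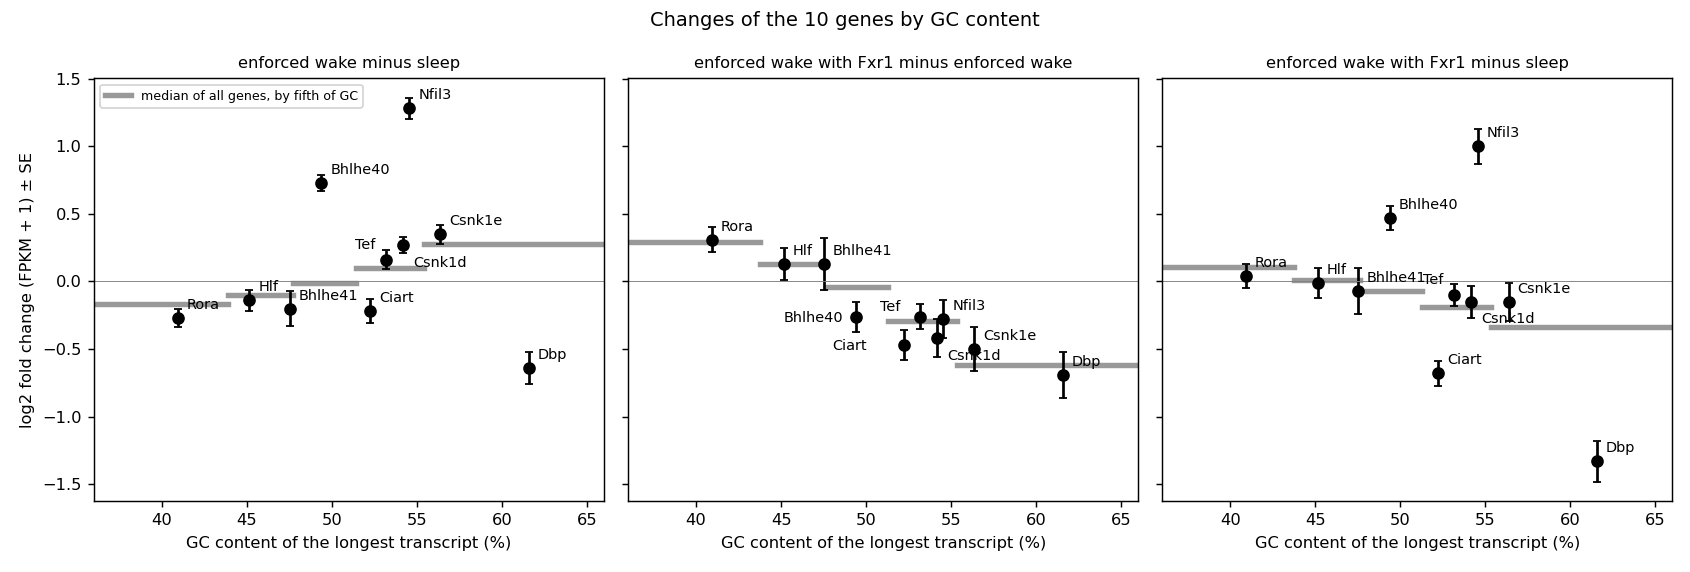
Log2 fold change of FPKM + 1 ± SE (y axis) of the 10 genes against the GC content of their longest transcript in percent (x axis), with grey bars for the median change of all genes in each quintile of GC. In the middle panel, where no member was called, the grey bars fall from 0.29 to -0.62. Bhlhe40 (-0.26), Ciart (-0.47), Csnk1d (-0.42) and Dbp (-0.69) lie below theirs there (-0.04, -0.29, -0.29 and -0.62). In the outer panels Nfil3, Bhlhe40 and Dbp lie far from the bars.

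Enforced wake with Fxr1 was also set against sleep, a comparison in which state and construct differ together. It shares its sleep and its Fxr1 libraries with the other comparisons, so its values are no separate support for them. Nfil3 and Bhlhe40 rose, 2.31-fold and 1.40-fold in mean FPKM, and Dbp and Ciart fell, to 0.366 and 0.582 of their sleep levels. In limma over all 9 libraries 2 members rose and 2 fell, beside 7.79% of the 14617 genes tested, 3.20% higher and 4.58% lower. The same 4 members passed with the GC and length trend removed, when 12.8% of all genes did, 7.20% higher and 5.63% lower. The groups did not overlap for these 2 higher and 2 lower members, nor for 11.5% and 21.2% of all genes (32.7% in either direction).

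Dbp had the largest change of the members here, with a log2 change of -1.33 (SE 0.15, limma adjusted p = 0.00319), and -0.89 (adjusted p = 0.00596) with the trend removed. Mean Dbp was 6.47 ± 1.21 FPKM with Fxr1 and its share of the 3 activators 3.97%, 5.59% and 4.93%, below every other library. Those activators summed to 132 to 136 FPKM with Fxr1, below both other groups. Share and sum are of FPKM as deposited. With the trend removed, Dbp, Tef and Hlf changed by 0.14, 0.05 and -0.01 with Fxr1 minus enforced wake. Nfil3 was higher than in sleep by 1.0 on the log2 scale (SE 0.13, limma adjusted p = 0.00552), and by 1.26 (adjusted p = 1.37e-04) with the trend removed. Ciart, at 9.29 ± 0.465 FPKM in sleep and 5.41 ± 0.369 FPKM with Fxr1 (SD, n = 3 each), changed by -0.68 (SE 0.09, limma adjusted p = 0.00643), and by -0.51 (adjusted p = 0.0236) with the trend removed. Bhlhe40 changed by 0.47 (SE 0.09, limma adjusted p = 0.0237), and by 0.54 (adjusted p = 0.00293) with the trend removed. Its call was lost without sleep replicate 1, 2 or 3 (0.0774, 0.0679 and 0.0899) and in a fit on the 6 libraries of these groups (0.0929). Over all genes 248, 347 and 250 were called without sleep replicate 1, 2 and 3, and 545, 453 and 644 without enforced wake replicate 1, 2 and 3. The other 6 members overlapped between these groups, with log2 changes between -0.15 (Csnk1d and Csnk1e) and 0.04 (Rora), and between -0.16 (Rora) and 0.15 (Csnk1e) with the trend removed.

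The order of the levels was read across genes, since FPKM are per length, but scaling by length leaves the trend with GC content. The order is that of FPKM as deposited. In sleep the means ran from Tef through Bhlhe40, Hlf, Csnk1d, Csnk1e, Dbp, Rora, Ciart and Bhlhe41 to Nfil3 as the lowest. Among neighbours in that order, Csnk1e, Dbp and Rora overlapped and the others did not. In enforced wake the mean of Csnk1d was above that of Hlf, Rora above Dbp, and Nfil3 above Ciart and Bhlhe41, with only Nfil3 and Dbp overlapping among neighbours. With the GC and length trend removed, Csnk1d and Hlf changed by 0.09 and -0.06 from sleep on the log2 scale. With Fxr1 the means of Nfil3, Dbp, Ciart and Bhlhe41 followed each other at the low end, each neighbour overlapping the next. Tef and Bhlhe40 kept the highest means in all 3 groups.

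Gene sums can hide a change between transcripts, so the 26 member transcripts with a mean of at least 0.5 FPKM over the 9 libraries were read one by one. The tests took transcripts with that mean over the 6 libraries compared, so the transcripts tested were not exactly these. In enforced wake minus sleep 2 member transcripts passed in limma, beside 3.62% of the 29116 transcripts tested. They were ENSMUST00000071065, the transcript of Nfil3 (log2 change 1.28, SE 0.09, adjusted p = 0.00804), and ENSMUST00000032194, which holds nearly all of Bhlhe40 (0.75, SE 0.05, adjusted p = 0.00535). The Dbp transcript, the same values as its gene, had an adjusted p of 0.0687 over transcripts. In enforced wake with Fxr1 minus enforced wake 0 member transcripts passed, beside 0.895% of the 28837 tested. The GC and length trend was not removed from transcript values.

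Csnk1d is split between ENSMUST00000070575 (3500 bases) and ENSMUST00000018274 (3675 bases), whose 5′ ends lie at 120991092 and 120991330 on chromosome 11. The shorter was at 22.9, 16.5 and 19.9 FPKM in sleep, 29.5, 24.3 and 25.0 FPKM in enforced wake and 9.19, 17.5 and 19.0 FPKM with Fxr1. Enforced wake was above both other groups for this transcript. Its log2 change was 0.40 (SE 0.14, limma adjusted p = 0.182) in enforced wake minus sleep. With Fxr1 against enforced wake that change was -0.80 (SE 0.28, limma adjusted p = 0.231). The longer was at 12.4 to 15.3, 11.3 to 17.7 and 14.4 to 15.9 FPKM, groups that all overlapped, with a change of 0.06 (SE 0.17, adjusted p = 0.855 in limma) in the same comparison. The difference between the transcripts was not tested, and an estimate can pass fragments from one to the other where they share exons.

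Tef has an upstream start, used by ENSMUST00000109553 (from 81802421), and a downstream one, used by ENSMUST00000023024 (from 81811414), whose promoter is printed above. The upstream transcript was at 3.63, 3.56 and 4.45 FPKM in sleep, 5.90, 6.11 and 5.82 FPKM in enforced wake and 1.86, 3.74 and 3.97 FPKM with Fxr1. It was highest in enforced wake, by 0.51 on the log2 scale over sleep (SE 0.10, limma adjusted p = 0.0631). Its change with Fxr1 against enforced wake was -0.77 (SE 0.24, adjusted p = 0.222 in limma). The downstream transcript carried most of the gene, at 78.3, 86.7 and 88.4 FPKM in sleep, 89.8, 91.4 and 98.9 in enforced wake and 74.3, 83.0 and 81.3 with Fxr1. The transcripts of Ciart scattered between libraries of 1 group. Its main transcript ENSMUST00000036418 was at 3.77, 4.09 and 6.39 FPKM in sleep, 3.12, 3.62 and 1.54 FPKM in enforced wake and 3.83, 1.54 and 2.34 FPKM with Fxr1, and only the gene sum is read here.

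In the authors' deposited table of sleep over enforced wake, the Nfil3 transcript had a fold of 0.364 with a q-value of 0.189 and the Dbp transcript a fold of 1.75 with a q-value of 0.484. Of the 79923 transcripts with a q-value in that authors' deposited table, 14 were below 0.05. In the authors' deposited table of Fxr1 over enforced wake the lowest q-value of a member transcript was 0.302, and 24 of 79087 transcripts with a q-value were below 0.05.

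**Figure D4:**
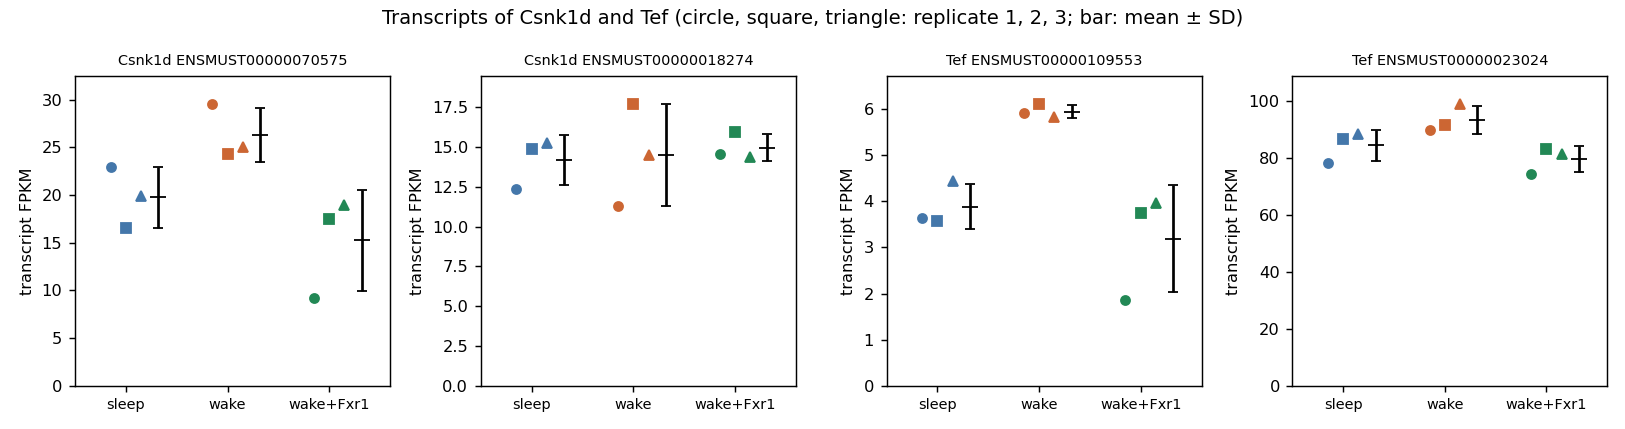
Transcript FPKM (y axis, linear, from 0) of the main transcripts of Csnk1d and Tef in each library, by group on the x axis, with replicates 1, 2 and 3 as circle, square and triangle and the mean ± SD as a bar. The shorter Csnk1d transcript and the upstream Tef transcript stand highest in enforced wake, while the longer Csnk1d transcript stays between 11.3 and 17.7 FPKM in all groups.

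The rest of the clock was measured by lists of genes. Of the core loop, 12 of 13 genes were tested in enforced wake minus sleep, of which 6 rose and 2 fell, beside 15.7% and 12.7% of all genes, with a median log2 change of 0.25 beside 0.00 over all genes tested. Per2 and Per1, repressors of Clock and Arntl, rose by 1.21 (SE 0.07, limma adjusted p = 6.81e-04) and 0.93 (SE 0.11, adjusted p = 0.00343), and Per3 by 0.68 (SE 0.12, adjusted p = 0.0120). Rorb, a relative of Rora, fell by 0.35 (SE 0.07, limma adjusted p = 0.0152). The call for Rorb was lost without enforced wake replicate 2 (adjusted p = 0.0524) and in the fit on all 9 libraries (0.0585), and that for Per1 with the GC and length trend removed (0.54, adjusted p = 0.0534), when 4 core loop genes rose and 2 fell.

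Of 18 other modifiers of clock proteins (kinases, ubiquitin ligase subunits, a deubiquitinase and others) 2 rose and 6 fell in the same comparison, beside 15.7% and 12.7% of all genes. With the trend removed 2 rose and 6 fell again, but not all of them were the same genes, beside 10.4% and 13.2% of all genes. Csnk1g2, a casein kinase of another branch, rose by 0.86 (SE 0.14, limma adjusted p = 0.00872), and by 0.49 with the trend removed. Its call was lost in the fit on all 9 libraries (adjusted p = 0.134). Tipin, the partner of Timeless, fell by 1.07 on the log2 scale (SE 0.08, limma adjusted p = 0.00114), Usp2, a deubiquitinase, by 0.56 (SE 0.08, adjusted p = 0.00592) and Prkaa1, a catalytic subunit of AMP-activated kinase that phosphorylates Cry proteins, by 0.42 (SE 0.07, adjusted p = 0.00823). The change of Prkaa1 was -0.25 with the trend removed. Pdxk, pyridoxal kinase, is a target of the PAR bZIP factors in mouse brain. It rose by 0.48 (SE 0.10, limma adjusted p = 0.0159) and by 0.27 (adjusted p = 0.0237) with the trend removed. This call was lost without enforced wake replicate 2 or 3 (adjusted p = 0.0527 and 0.0578) and in the fit on all 9 libraries (0.152). With Fxr1, where mean Dbp was lowest, Pdxk changed by -0.59 against enforced wake and by -0.11 against sleep (limma adjusted p = 0.102 and 0.717). With the trend removed these 2 values were -0.21 and 0.07. Of the relatives of Bhlhe40 in the bHLH-Orange family 4 of 6 were tested and 2 rose, beside 15.7% of all genes. These were Hes1, by 0.74 (SE 0.07, limma adjusted p = 0.00236), and Hes5, by 0.34 (SE 0.08, adjusted p = 0.0298). Hes5 had a change of -0.07 with the trend removed, and its call was lost without sleep replicate 2 or 3 and without enforced wake replicate 2 or 3 (0.0656 to 0.0979), without a filter on low values (0.0733) and in the fit on all 9 libraries (0.103). None of 3 tested C/EBP factors, bZIP relatives of the D-box factors, passed in limma, and 0 of them had an unadjusted p below 0.05; with the trend removed Cebpg rose by 0.25 (adjusted p = 0.0326).

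With Fxr1 against enforced wake 0 genes of these lists passed in limma with Benjamini-Hochberg adjustment. The smallest p-values were those of Per2 (log2 change -0.49), Per1 (-1.09), Nr1d1 (-0.88) and Cry2 (-0.57) in the core loop and of Tipin (0.43), Csnk1g3 (0.43), Prkaa1 (0.39) and Csnk1g2 (-1.24) among the modifiers, with adjusted p-values of 0.0878 to 0.0892 and unadjusted ones of 0.00318 to 0.0123. At an unadjusted p below 0.05 there were 5 of 12 core loop genes (1 higher, 4 lower) and 11 of 18 modifiers (7 higher, 4 lower), beside 12.9% of all genes higher and 25.4% lower. With the trend removed the changes were -0.09 for Per2, -0.34 for Per1, -0.29 for Nr1d1 and -0.07 for Cry2, and 0.14 for Tipin, 0.22 for Csnk1g3, 0.08 for Prkaa1 and -0.46 for Csnk1g2. Without Fxr1 replicate 1 all 8 of these genes passed in limma, with adjusted p-values from 0.00678 (Per1) to 0.0334 (Prkaa1), as they did in the fit on all 9 libraries (0.0346 to 0.0400). Over all genes 3316 and 3366 passed in these settings. The 8 were named for their small p in this same comparison, so their passing is no separate result. The medians were -0.15 for the core loop and 0.06 for the modifiers, beside -0.06 over all genes.

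With Fxr1 against sleep 3 core loop genes rose and 1 fell, and of 18 modifiers 0 rose and 2 fell in limma, beside 3.20% of all genes higher and 4.58% lower. At an unadjusted p below 0.05 there were 2 modifiers higher and 2 lower, beside 9.93% and 19.2% of all genes (29.2% in either direction). Per2 rose by 0.71 (SE 0.10, limma adjusted p = 0.00682), Arntl and Clock each by 0.45 (adjusted p = 0.0144 and 0.0465), and Nr1d1, a repressor of Arntl, fell by 1.07 (SE 0.22, adjusted p = 0.0275). Tipin fell by 0.64 (limma adjusted p = 0.00634) and Usp2 by 0.98 (adjusted p = 0.00786), while Csnk1a1, a casein kinase, had a log2 change of 0.34 (SE 0.09, adjusted p = 0.0582), which passed with the trend removed (0.28, adjusted p = 0.00728) and with median ratio scaling or quantile normalization (0.0492 and 0.0468). Hes1 rose by 0.80 (SE 0.08, limma adjusted p = 0.00239). The calls for Arntl, Clock and Nr1d1 were lost without any 1 of the sleep libraries, with adjusted p-values of 0.0530 to 0.141, those for Clock also without any enforced wake library (0.0784 to 0.0820) and for Nr1d1 without enforced wake replicate 1 or 2 (0.0512 and 0.0530). In a fit on the 6 libraries of these groups the calls for Per2 (0.0519), Usp2 (0.0512), Arntl (0.0648), Clock (0.141) and Nr1d1 (0.0948) were lost, while Tipin (0.0427) and Hes1 (0.0275) passed. Without a filter on low values Clock (0.0747) and Nr1d1 (0.0531) were lost, and the change of Clock was 0.27 with the trend removed.

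**Figure D5:**
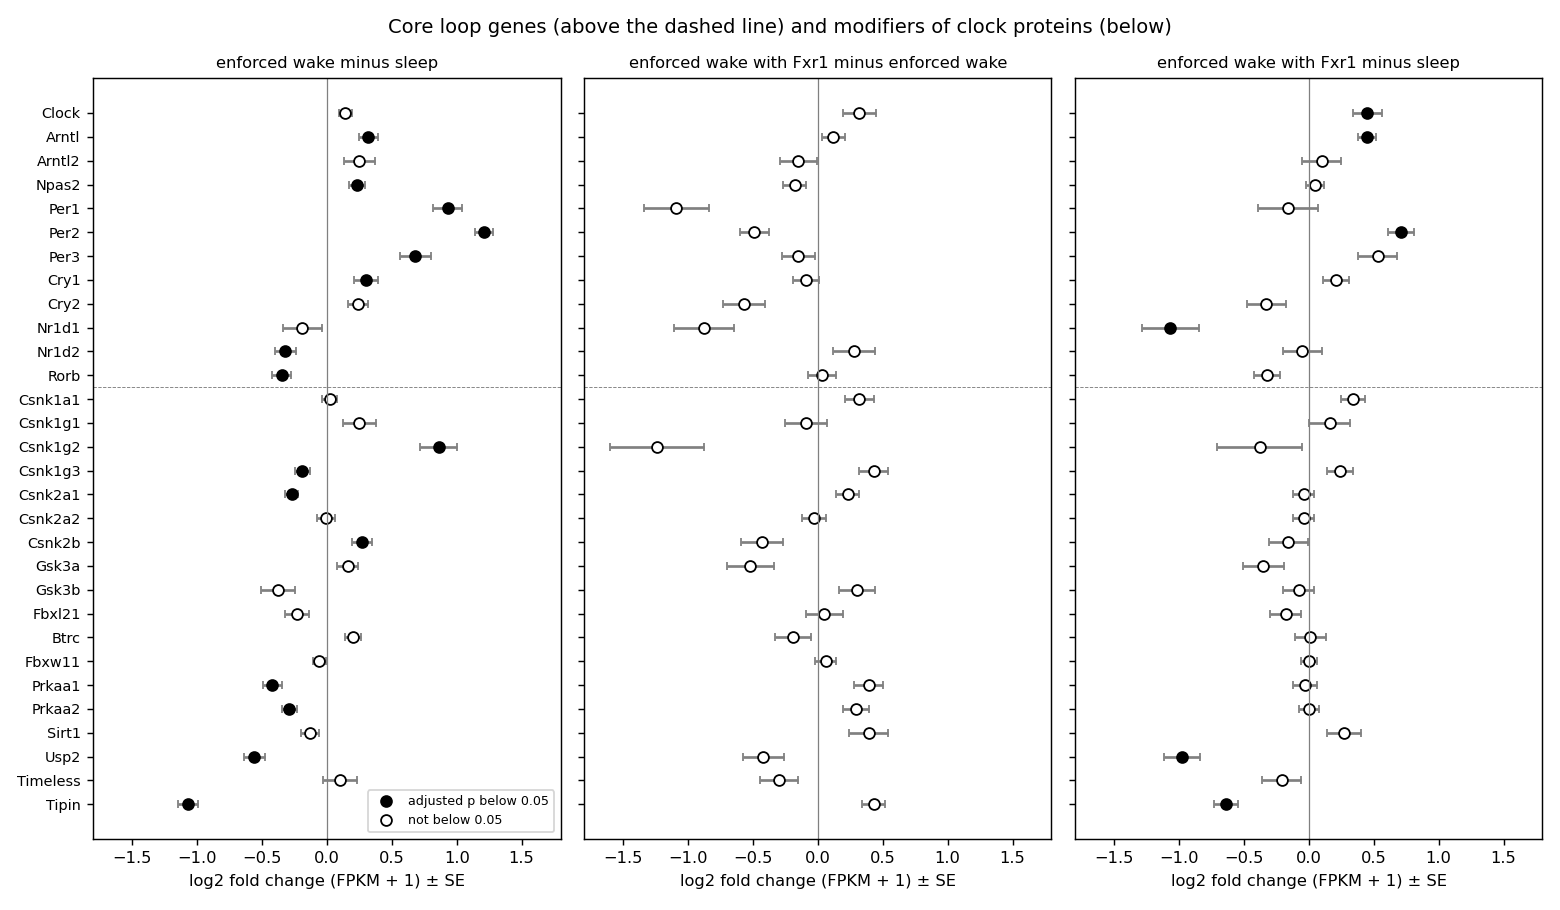
Log2 fold change of FPKM + 1 ± SE (x axis) of the core loop genes and the modifiers of clock proteins (y axis) in the 3 comparisons, with filled circles for a limma adjusted p below 0.05. In the left panel 6 core loop genes are filled on the right of 0 and 2 on the left, and in the middle panel no circle is filled.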

How the data were processed

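Per the labels' protocols, RNA came from RiboTag immunoprecipitation and the library kit was a stranded one for total RNA. The authors deposited 2 tables of FPKM per transcript, 1 with sleep and enforced wake and 1 with enforced wake and enforced wake with Fxr1, per the file headers. The 3 enforced wake columns were identical in both, so the 9 libraries were joined. Each table also holds the authors' linear fold, p-value and q-value per transcript, per the file headers; their tool was not given in the sources used here. HISAT2 2.1.0, SAMtools 1.9, StringTie 1.3.4d and GRCm38 stand in the submitters' processing notes. Count models were not applied to FPKM, which are scaled to the mapped fragments of each library. The FPKM of a library summed to 309832 to 358936. Depth is an estimate: in genes with 1 transcript of at least 300 bases, FPKM times length rises in steps of 1 fragment. That step was sought only within a fixed range, which bounds the estimated fragments of libraries and genes.

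Gene FPKM were tested as log2(FPKM + 1), which understates the change of low genes, with limma 3.58.1 in R 4.3.3 (eBayes with trend, 2-sided), keeping genes with a mean of at least 0.5 FPKM. Benjamini-Hochberg adjustment ran over all genes tested, with a threshold of 0.05. Each comparison with enforced wake used its own 6 libraries, and enforced wake with Fxr1 minus sleep all 9. The procedure was run on simulated data with noise independent between genes. Those data hold no GC trend and no outlying library, so the run cannot speak to either. The trend with GC content and log length of the longest transcript (GENCODE annotation on GRCm38) was removed by splines fitted in each library, as an alternative.

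The members and gene lists were chosen with earlier results of these data known, so list counts stand beside all genes and no list was tested. The genes named are all members and, from each list, up to 4 genes with the smallest p in each comparison. The naming rule also covers the 26 member transcripts with a mean of at least 0.5 FPKM over the 9 libraries; those named in the text were chosen from them after their values were seen. 1 gene of these lists is not reported here and was left out of their counts. Promoter sequences are from RefSeq (GRCm38.p6). Alternatives were the pseudocount, the filter, scaling, the GC and length trend, a replicate block, the variance trend, the libraries fitted and leaving out each library.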

Additional observations from a re-analysis of the deposited data

How the results depend on the processing

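Of 510 member values under alternatives, 446 kept their sign and their side of the threshold, 25 lost a call, 12 gained one and 27 changed sign, none of the 27 with a call. Dbp, Nfil3 and Bhlhe40 in enforced wake minus sleep, and Dbp, Nfil3 and Ciart in enforced wake with Fxr1 minus sleep, were called under every alternative. In enforced wake minus sleep (main 4156 genes, 6 members), the block with GC correction gave 2235 genes and 3 members, all 9 libraries 1398 and 3, and leaving out 1 library 1822 to 3631 and 3 to 6. In enforced wake with Fxr1 minus enforced wake (60 genes, 0 members), genes numbered 29 with pseudocount 0.1, 4 without a filter, 34 at a mean of at least 2 FPKM, 92 with quantile normalization and 3366 in all 9 libraries (6 members); leaving out 1 library gave 2 to 3316 genes and 0 to 5 members. In enforced wake with Fxr1 minus sleep (1138 genes, 468 higher and 670 lower, 4 members), GC correction gave 1871 genes, 6 libraries 183 and leaving out 1 library 248 to 1440, with 3 to 4 members in every case. The split was 654 higher and 360 lower with quantile normalization there and 630 and 433 with median ratio scaling. The cause was not tested.

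Whether replicate numbers pair the samples is not known. Same-numbered libraries correlated at -0.26 to 0.18 in their deviations from the group means, which rest on 3 libraries each and cannot decide it. With the replicate block 3116 genes and 4 members, 1 gene and 0 members, and 372 genes and 3 members were called in the 3 comparisons, and 1 gene in the middle one with the block and GC correction. Not every sample correlated best with its own number.

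Changes of sign, with and without the block, came with GC correction: with Fxr1 minus enforced wake Dbp 0.14, Tef 0.05, Hlf -0.01, Nfil3 0.12 and Csnk1e 0.06, with Fxr1 minus sleep Tef 0.06, Rora -0.16, Csnk1d 0.06 and Csnk1e 0.15, and in enforced wake minus sleep Hes5 -0.07. With Fxr1 minus sleep, Hlf was 0.07 with median ratio scaling and 0.03 with quantile normalization, 0.05 without sleep replicate 2, and 0.02 and 0.06 without Fxr1 replicates 2 and 3 (-0.11 to 0.06 over all libraries left out in turn). Bhlhe41 was 0.05 with quantile normalization and 0.10 without Fxr1 replicate 2 (range -0.18 to 0.10), and without Fxr1 replicate 1 Rora was -0.02 (range -0.02 to 0.10) and Csnk1e 0.03 (range -0.27 to 0.03). Depth limits Ciart (207 to 402 estimated fragments), Nfil3 and Dbp (325 to 1182) most.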
